A study of Mus musculus with 7 samples.

Results

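Gene expression in the brain was compared between Pla2g2e-deficient and wild type mice 3 days into recovery from a stroke, using the 6 of 7 arrays of the series that carry these labels. Pla2g2e encodes a secreted phospholipase A2, an enzyme that releases fatty acids and lysophospholipids from phospholipids outside the cell. The genotypes were wild type and Pla2g2e -/-, all in male C57BL/6N mice, and the labels name no other allele, no age and no brain region. In both groups the middle cerebral artery was blocked for 60 min and then reopened (transient middle cerebral artery occlusion). There were 3 arrays titled knockout day 3 and 3 titled wild type day 3. The seventh array, labelled as a wild type sham, is given as a bystander value and entered no test.

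Genes were chosen for description by a simple rule. A gene was counted when its 3 knockout values did not overlap the wild type values, that is, when the highest value of one group lay below the lowest value of the other. The distance between these 2 values is called the gap. Signals are log2 processed intensities minus the 75th percentile of the same array, so that 0 is the level of a fairly bright spot and each unit is a doubling. Of 22804 features, mostly 1 per gene, 1025 (4.49%) had no overlap on the 6 arrays, 430 with the knockout higher (1.89%) and 595 with it lower (2.61%). Without the array titled wild type replicate 1, which stood apart from the others, 2650 features (11.6%) had no overlap, 1446 higher (6.34%) and 1204 lower (5.28%). If labels were given at random, a share of 0.10 of features on average would part with 3 arrays against 3. The 4.49% was below that share. Fewer arrays part more easily, so the rise to 11.6% is not by itself a gain. The share of 0.10 holds for 3 arrays against 3 and is larger for 3 against 2. The 11.6% is therefore not to be read as above the share for random labels. Pla2g2e lies on chromosome 4, where genes near it are inherited with the targeted allele, so the shared functions below are those of the 21403 features outside that chromosome. There 956 features had no overlap on 6 arrays (4.47%), 406 higher (1.9%) and 550 lower (2.57%). Without wild type replicate 1 there were 2486 (11.6%), 1372 higher (6.41%) and 1114 lower (5.2%).

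After a stroke the tissue around dead neurons is cleared by phagocytes, walled off by reactive astrocytes and rebuilt by vessels and fibroblast-like cells that lay down matrix. Arteries are wrapped by smooth muscle whose contractile proteins include smooth muscle actin, myosin and calponins. Debris of myelin brings cholesterol into phagocytes, and brain cells make their own cholesterol through a chain of enzymes that starts from acetyl units and is switched on as a unit when sterols run low.

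The files set limits on every comparison. The wild type arrays, sham included, shared 1 slide and the knockout arrays another, so genotype and slide cannot be told apart. Whether each replicate was a separate animal is not in the labels, so a p-value here covers the spread of the arrays alone, which may be technical. On each array 31177 to 34029 of 43020 spots were well above background and no spot was saturated. Wild type replicate 1 correlated with the other 5 arrays at 0.86 to 0.91 over all features, against 0.97 to 0.99 among the knockout arrays and 0.99 between wild type replicates 2 and 3. Between the knockout arrays and wild type replicates 2 and 3 the correlations were 0.98 to 0.99, as high as within the groups. All 17 measured neuron markers outside chromosome 4 were well above background on all 6 arrays, as the label brain implies. Injury genes went against the labels of 2 wild type arrays. Lgals3, the galectin of phagocytes, read -3.17 on the array titled wild type day 3 replicate 1 and 5.83 on the array labelled sham, against 6.27 and 6.24 on wild type replicates 2 and 3. The summed level of 28 genes of damage-associated microglia was 305 on wild type replicate 1, 871 on the array labelled sham and 896 to 1094 in the knockout, and that of 27 reactive astrocyte genes was 15.2, 178 and 189 to 355. The array labelled sham is therefore given by its label and not as an uninjured reference. Knockout replicate 2 also stood apart. Its neuron markers lay 0.65 above the mean of wild type replicates 2 and 3 (median over the markers, log2), against -0.43 and -0.94 on the other knockout arrays, and its 34 matrix genes lay at -0.69 against -0.03 and -0.04. Without knockout replicate 2, 3640 features had no overlap with the knockout higher and 2922 with it lower on the remaining 5 arrays. Features part more easily on 5 arrays than on 6.

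The brighter probe of Pla2g2e itself read -6.89, -3.68 and -3.36 on wild type replicates 1 to 3 and -4.44, -5.83 and -4.97 on knockout replicates 1 to 3. The groups overlapped, and they parted only without wild type replicate 1, by a gap of 0.76. The labels do not name the deleted exons, so neither probe checks the genotype.

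No gene passed the test across all features. With limma, 0 features had an adjusted p under 0.05 on 6 arrays (0.0%) and 179 (0.785%) an unadjusted p under 0.05. Without wild type replicate 1 there were again 0 (0.0%) after adjustment, and 360 (1.58%) before it. The smallest adjusted p was 0.135 on 6 arrays and 0.0946 without wild type replicate 1. An exact permutation test of 3 arrays against 3 cannot go below p = 0.10. The values that follow therefore describe these arrays, and none of the named differences passed. Most gaps were small. Their median was 0.06 for genes higher in the knockout and 0.07 for genes lower on 6 arrays, and a gap above 0.5 was found for 12 and 25 features.

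Among genes outside chromosome 4, calponin 1 (Cnn1), an actin-binding protein of smooth muscle, had the widest gap below wild type. Its probe, at 21913058 to 21913117 on chromosome 9 of the mm9 assembly, read -1.27, -2.43 and -2.63 on wild type replicates 1 to 3 and -4.00, -3.70 and -4.04 on knockout replicates 1 to 3. Every knockout array was thus at least 1.08 below every wild type array, and the array labelled sham, at -0.71, was the highest of the 7. The mean difference was -1.81 ± 0.40 (SE; limma, adjusted p = 0.859), a level 3.50-fold lower in the knockout. Without wild type replicate 1 it was -1.39 ± 0.17.

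Several genes of developmental control and of the neuronal surface followed. Dlx4, a homeodomain transcription factor, read -5.81, -5.46 and -6.23 in wild type and -7.50, -7.27 and -7.36 in the knockout, a gap of 1.04. Its knockout values were tightly grouped, with an SD of 0.11, and 2 of the 3 were well above background. Tfap2c, a transcription factor of the AP-2 family, was well above background on all wild type arrays but none of the knockout arrays, a level at least 2.08-fold lower. Unc5d, a netrin receptor of migrating neurons, read -5.09, -5.01 and -5.66 in wild type and -7.88, -6.31 and -7.76 in the knockout. Only 1 knockout array was well above background for Unc5d, and knockout replicate 2 was the closest to wild type. Prss12, a synaptic protease that cleaves agrin, read 1.17, -1.23 and -1.37 in wild type and -2.55, -1.81 and -2.72 in the knockout. Wild type replicate 1 was far above the other wild type arrays, and the difference of -1.88 ± 0.75 on 6 arrays was -1.06 ± 0.31 without it (SE; limma, not passed).

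Pappa2, a protease of insulin-like growth factor binding proteins, read -2.43, -4.57 and -5.03 in wild type and -6.53, -6.49 and -5.76 in the knockout. Its 2 dimmer probes overlapped, with mean differences of 1.08 and 0.66 on 6 arrays in the other direction, so the probes of Pappa2 disagree. Ttll6, which adds glutamate chains to tubulin in cilia, read -5.53, -5.29 and -5.70 in wild type and -6.30, -6.55 and -6.58 in the knockout. Slc34a1, a sodium-phosphate cotransporter, had a gap of 0.48 and Ankrd34c, an ankyrin repeat gene, one of 0.45. Both genes and Ttll6 were well above background on all 6 arrays. Tchhl1, related to the hair protein trichohyalin, and Alkal1, a ligand of the receptor kinases ALK and LTK, were well above background on no knockout array. They were at least 1.82-fold and at least 2.35-fold lower there.

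**Figure D1:**
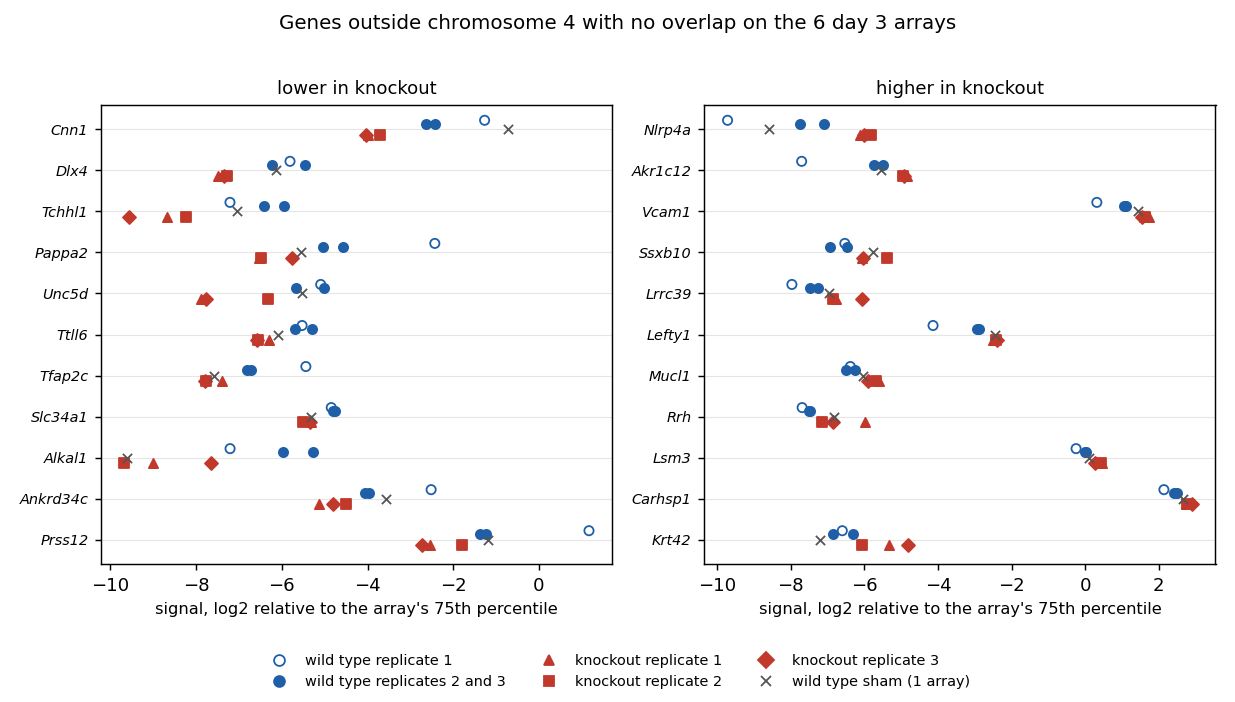
Signal of the named genes outside chromosome 4 without overlap on the 6 day 3 arrays, lower in the knockout on the left and higher on the right, on each array (log2 relative to the array's 75th percentile). Every red point lies on one side of every blue point in its row; the cross of the array labelled sham lies among the wild type points for Dlx4 and beyond them for Cnn1.

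Among the genes with the widest gaps above wild type were Carhsp1, an RNA-binding protein with a cold shock domain, and Vcam1, the adhesion molecule that activated endothelium shows to leukocytes. Vcam1 read 0.32, 1.06 and 1.098 in wild type and 1.74, 1.64 and 1.55 in the knockout, with its probe at 115813216 to 115813275 on chromosome 3 (mm9). The knockout arrays lay close together, at least 0.45 above the highest wild type array, and the array labelled sham, at 1.43, lay between the groups. The difference was 0.82 ± 0.27 (SE; limma, adjusted p = 0.859) and 0.57 ± 0.13 without wild type replicate 1. A second, dimmer Vcam1 probe was higher by 0.92 on average but overlapped, because knockout replicate 2, at -2.49, was below wild type replicate 3, at -2.23.

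Lefty1, a secreted inhibitor of Nodal signalling, read -4.13, -2.94 and -2.88 in wild type and -2.50, -2.43 and -2.39 in the knockout. Wild type replicates 2 and 3 were much closer to the knockout than replicate 1 was. Lsm3, a subunit of the ring that binds U6 RNA and decapped messages, read -0.25, 0.01 and -0.01 in wild type and 0.46, 0.42 and 0.27 in the knockout. Carhsp1 read 2.14, 2.42 and 2.49 in wild type and 2.74, 2.76 and 2.91 in the knockout. Its second probe was higher by 0.03 without wild type replicate 1 and overlapped. These genes differed by less than a doubling.

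The other named genes with higher values were dim. Nlrp4a, of a family of cytosolic sensors with a role in germ cells, had a gap of 0.99 and was well above background on all knockout arrays but none of the wild type arrays, a level at least 2.67-fold higher. Lrrc39, a muscle protein of the sarcomere, and Rrh, the retinal pigment peropsin, were found the same way, at least 1.85-fold and at least 1.68-fold higher. The second probes of Nlrp4a, Lrrc39 and Rrh were well above background on no array. Akr1c12, an aldo-keto reductase, had a gap of 0.54, Ssxb10 a gap of 0.41, Mucl1, a mucin-like gene, 0.35 and Krt42, a keratin, 0.25. Over all features, 16 were well above background on all knockout but no wild type arrays, and 26 the reverse. Genes chosen among these had to differ, so their counts carry no further weight.

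Leaving out wild type replicate 1 brought forward genes whose groups overlapped mostly through that array. Serpinb2, an inhibitor of plasminogen activators that is induced in injury, read -8.88, -1.92 and -1.60 on wild type replicates 1 to 3 and -3.24, -3.95 and -3.41 in the knockout. Wild type replicate 1 was far below every other array, while wild type replicates 2 and 3 lay at least 1.32 above every knockout array. Ankrd1, an ankyrin repeat gene known as a target of the YAP coactivator, read -10.05, -3.37 and -3.20 in wild type and -4.56, -5.49 and -5.15 in the knockout. Areg, the epidermal growth factor receptor ligand amphiregulin, read -7.33, -3.34 and -2.48 in wild type and -5.16, -5.61 and -4.75 in the knockout. For all 3 genes wild type replicate 1 was the lowest of the 6 arrays, so with it the groups overlapped.

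Their differences without it were -1.78 ± 0.26 for Serpinb2, -1.78 ± 0.30 for Ankrd1 and -2.27 ± 0.38 for Areg (SE; limma, none passed after adjustment). These are levels 3.43-fold, 3.44-fold and 4.81-fold lower in the knockout. With wild type replicate 1 the mean differences were 0.60, 0.47 and -0.79, so that the direction of Serpinb2 and Ankrd1 rests on leaving that array out. On the array labelled sham the 3 genes read -4.75, -4.80 and -4.21, closer to the knockout than to wild type replicates 2 and 3.

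Mid1, a microtubule-bound ubiquitin ligase on the X chromosome, was lower on both of its probes. The brighter one read -4.37, -0.91 and -0.85 in wild type and -3.06, -2.34 and -2.20 in the knockout, and the differences of the 2 probes without wild type replicate 1 were -1.66 and -1.71. Cytl1, a small secreted protein of cartilage and blood progenitors, was lower with and without that array. It read -2.01, -0.84 and -0.62 in wild type and -2.39, -3.35 and -2.34 in the knockout, with -0.94 on the array labelled sham. Cd200r2, of the family of CD200 receptors, Mmp1b, related to the interstitial collagenases, and Prl2c5, a prolactin-like hormone, had gaps of 1.32, 1.14 and 2.04. Prl2c5, Mmp1b, Akr1c12 and Ssxb10 have close paralogs, and which copy a probe reads is uncertain.

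Higher in the knockout without wild type replicate 1, Tmem267, a membrane protein, was found on all 3 of its probes. The brightest read -0.86, -2.93 and -2.71 in wild type and -1.86, -2.13 and -1.59 in the knockout, and the 3 probes were higher by 0.96, 1.20 and 1.35. Rln1, the hormone relaxin, had a gap of 0.55, Ccl28, a mucosal chemokine, 0.49 and Col25a1, a membrane collagen of neurons, 0.47. Syce1, a protein of the synaptonemal complex, had 0.44, Gp9, a subunit of the platelet von Willebrand factor receptor, 0.36 and Cyp4f15, a cytochrome P450, 0.35. For each of these 7 genes wild type replicate 1 was above every other day 3 array. The dimmer 3 probes of Col25a1 were higher too, by 0.23 to 0.33, but overlapped.

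**Figure D2:**
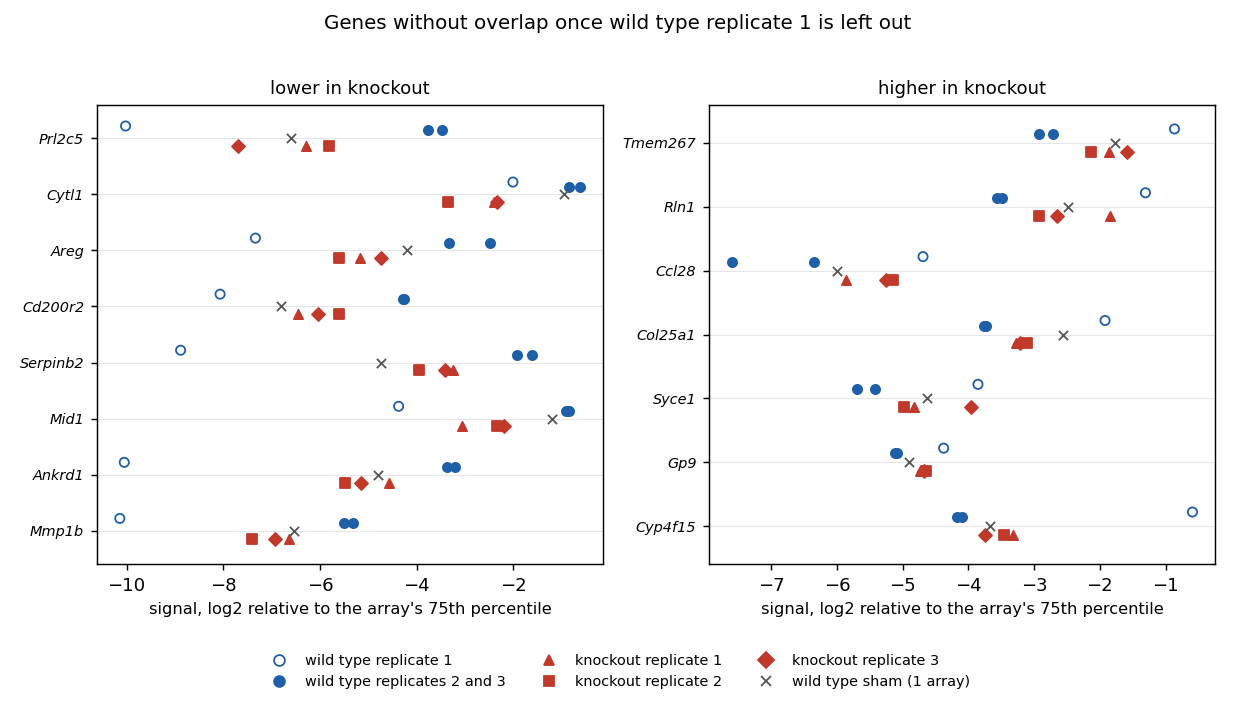
Signal of the genes named once wild type replicate 1 (open circle) is left out, on each array, lower in the knockout on the left and higher on the right (log2 relative to the array's 75th percentile). The open circle lies on the far side of the red points for 7 of the 8 genes on the left.

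Shared functions were described with 46 gene lists and 17 gene families set by name, each read beside the share of all features outside chromosome 4. On 6 arrays the lists with members lower in the knockout included 3 of 17 smooth muscle contractile genes, 25 of 186 olfactory receptors (13.4%) and 7 of 52 vomeronasal receptors (13.5%), against 2.57% of all features. Higher in the knockout were 2 of 15 genes of homeostatic microglia, 4 of 49 proteasome genes and 2 of 19 cholesterol synthesis genes, against 1.9%. Without wild type replicate 1, cholesterol synthesis (8 of 19) and the mitochondrial ribosome (22 of 72) were higher, and contractile (9 of 17), matrix (9 of 34) and collagen genes (9 of 33) lower. The corresponding shares of all features were 6.41% and 5.2%.

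**Figure D3:**
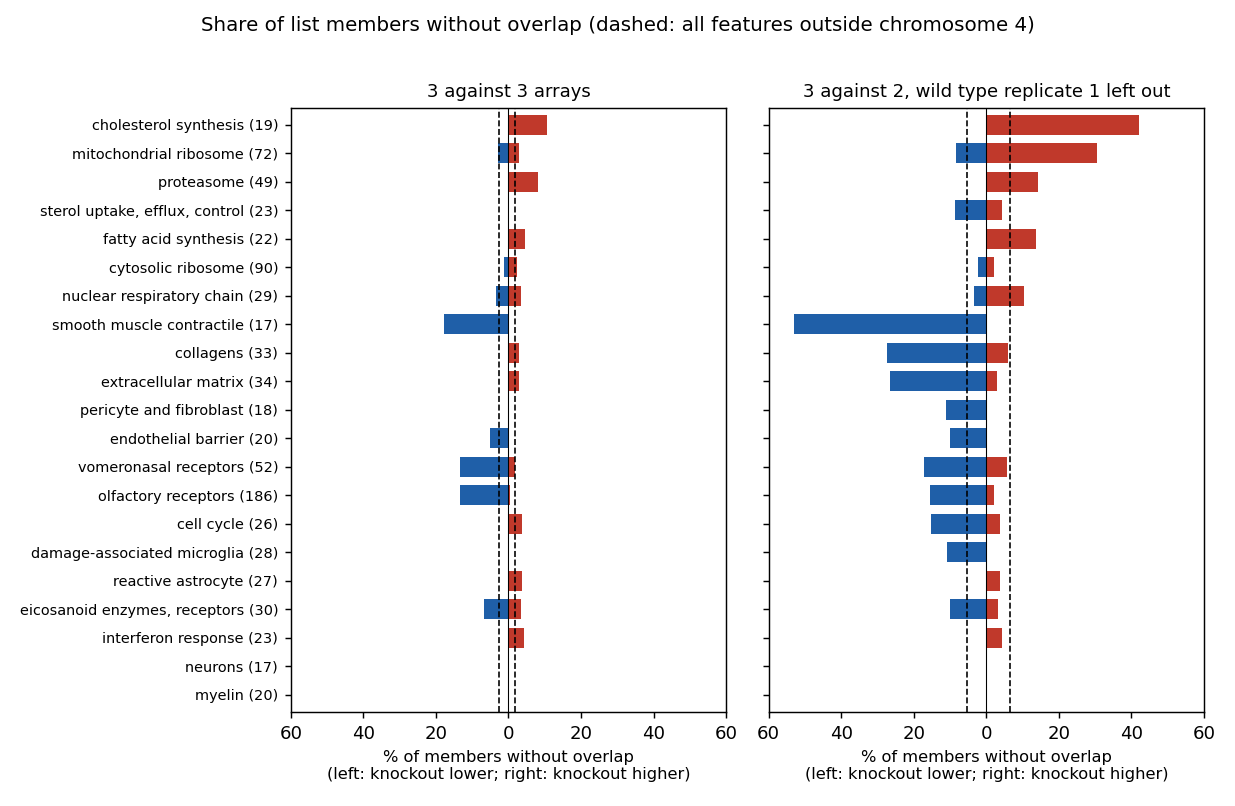
Percent of the measured members of 21 lists (number in brackets) without overlap, lower in the knockout to the left in blue and higher to the right in red, on 6 arrays and without wild type replicate 1. Dashed lines mark all 21403 features outside chromosome 4; cholesterol synthesis reaches 42.1% and smooth muscle contractile genes 52.9% in the right panel.

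The enzymes of cholesterol synthesis were slightly but widely higher in the knockout than in wild type replicates 2 and 3. Of 19 measured genes 18 had a higher mean, with a median difference of 0.30 against 0.00 for all features, and 8 had no overlap, with 0 in the other direction. They span the pathway: Hmgcs1 makes hydroxymethylglutaryl-CoA, Mvd forms isopentenyl units, Fdft1 joins them to squalene, and Cyp51, Msmo1, Nsdhl, Hsd17b7 and Sc5d trim and reshape the sterol ring. Hmgcs1 read 3.88, 3.08 and 3.22 in wild type and 3.53, 3.39 and 3.60 in the knockout. Sc5d read 0.91, 0.64 and 0.71 in wild type and 0.93, 0.95 and 1.19 in the knockout. Cyp51 read -2.63, -3.14 and -2.90 in wild type and -2.55, -2.82 and -2.22 in the knockout.

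Wild type replicate 1 lay within or above the knockout range for 6 of these 8 genes, so with all 6 arrays Sc5d and Hsd17b7 were the 2 members without overlap, by gaps of 0.02 and 0.05. The gaps without it were 0.02 to 0.22. Knockout replicate 3 was the highest. The median member lay 0.56 above wild type replicates 2 and 3 on knockout replicate 3, 0.13 above on replicate 1 and 0.00 on replicate 2, while wild type replicate 1 lay at 0.33 and the array labelled sham at -0.15. Without knockout replicate 3 the median difference was 0.16, with 8 of 19 without overlap. The difference was 0.36 ± 0.14 for Hmgcs1 and 0.49 ± 0.22 for Cyp51 (SE; limma, neither passed). The array design places the 2 Fdft1 probes far apart on chromosome 14, and the dimmer one had a lower mean in the knockout (-0.18), so Fdft1, 1 of the 8, is uncertain. The dimmer probes of Hmgcs1 and Nsdhl overlapped, and the 2 dimmer probes of Hsd17b7 gave -0.06, with overlap, and 0.43, without it.

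Genes of sterol uptake, efflux and control had other values. Without wild type replicate 1, 1 of 23 was higher and 2 lower without overlap, and 18 had a lower mean, with a median difference of -0.06. On 6 arrays the median was 0.19 with 14 of 23 above 0 and none without overlap, beside a median of 0.19 for cholesterol synthesis with 17 of 19 above 0. Abcg1, a cholesterol exporter, read 2.20, 2.68 and 2.74 in wild type and 2.26, 2.58 and 2.59 in the knockout, and Nr1h3, the sterol-sensing nuclear receptor LXR alpha, had a difference of -0.30 without wild type replicate 1 and 0.42 with it. In fatty acid synthesis and desaturation 3 of 22 were higher without wild type replicate 1 (13.6%, against 6.41% of all features) and 0 lower. The median difference was 0.09 there. On 6 arrays 1 was higher and 0 lower, and 14 of 22 had a lower mean, with a median of -0.08. The 20 myelin genes had a median difference of 0.27 without wild type replicate 1, with 18 above 0 and 0 without overlap. On knockout replicates 1 to 3 the median myelin gene lay at 0.60, 0.91 and -0.71, lowest on the array where the cholesterol genes were highest. The part of myelin content in the cholesterol values was not tested. The summed myelin level was 207 to 228 in wild type and 186 to 330 in the knockout. All 20 were well above background on all 6 arrays.

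**Figure D4:**
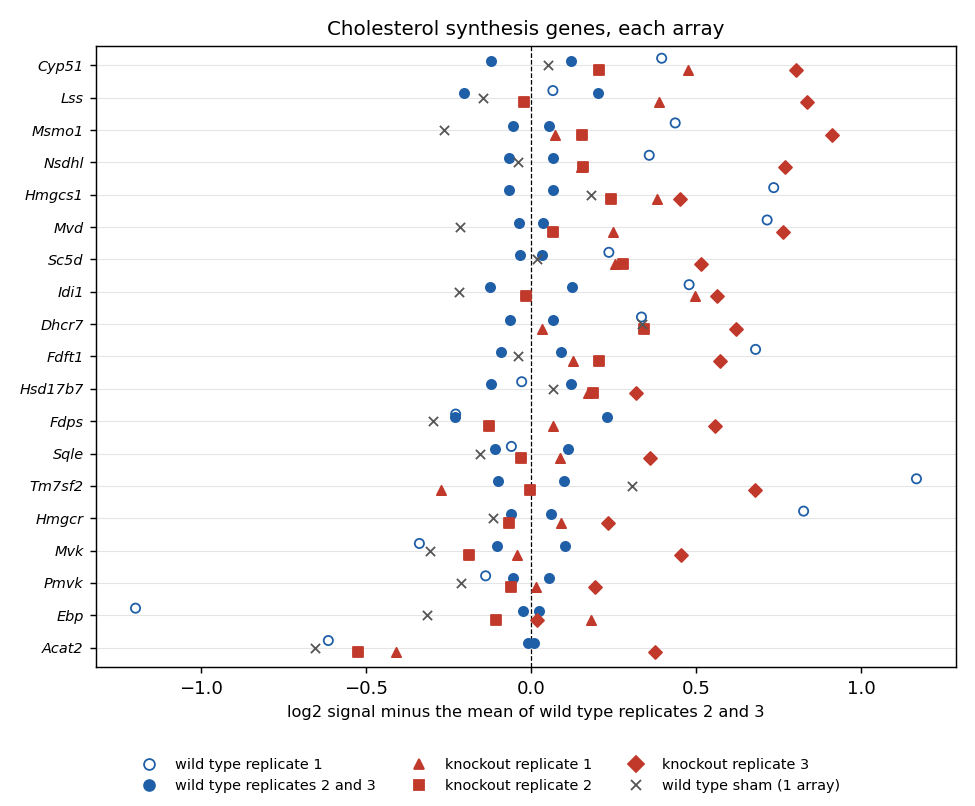
Signal of the 19 measured cholesterol synthesis genes outside chromosome 4 on each array, as log2 distance from the mean of wild type replicates 2 and 3. Red points lie mostly to the right of 0 with knockout replicate 3 farthest, and the open circle of wild type replicate 1 lies to the right as well for many genes.

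The promoters of these enzymes are shown because the genes were higher together. RefSeq windows (GRCm38.p6) of 250 bases before the start were found for 15 of the 20 genes. The letters CCAAT, the box bound by the factor NF-Y, stood on either strand in 14 of these 15 genes (93.3%), against 37.5% of 27025 genes with such a window. The sterol regulatory element as TCACNCCAC stood in 1 of 15, Hmgcs1, against 1.22% of all. These shares describe letters in a window and not bound sites. Capitals mark both motifs on either strand in the stretches below, which are cut from the 250-base windows around the matches and given in the direction of transcription; ATTGG is CCAAT on the opposite strand.
Hmgcs1, chr13:119690101-119690330, plus strand: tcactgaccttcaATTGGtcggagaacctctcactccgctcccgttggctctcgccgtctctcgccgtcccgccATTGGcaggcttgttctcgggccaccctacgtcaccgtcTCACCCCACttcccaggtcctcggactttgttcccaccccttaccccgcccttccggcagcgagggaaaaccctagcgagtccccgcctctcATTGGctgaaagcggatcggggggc
Hsd17b7, chr1:169969206-169969390, minus strand: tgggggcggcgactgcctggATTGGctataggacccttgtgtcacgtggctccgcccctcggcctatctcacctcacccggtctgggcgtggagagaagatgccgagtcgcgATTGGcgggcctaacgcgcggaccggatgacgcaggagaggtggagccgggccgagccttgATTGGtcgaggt
Sc5d, chr9:42264301-42264344, minus strand: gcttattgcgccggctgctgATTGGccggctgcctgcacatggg
Cyp51, chr5:4104702-4104746, minus strand: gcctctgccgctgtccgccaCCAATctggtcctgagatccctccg

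Contractile genes of smooth muscle were lower in the knockout than in wild type replicates 2 and 3. Of 17 measured genes outside chromosome 4, 15 had a lower mean, 9 had no overlap and 0 were higher without overlap, with a median difference of -0.42. Besides Cnn1 these were smooth muscle actin (Acta2), smooth muscle myosin (Myh11), its light chain and kinase (Myl9, Mylk), calponin 2 (Cnn2), the intermediate filament desmin (Des), the actin nucleator Lmod1 and the calcium pump inhibitor phospholamban (Pln). Acta2 read 0.83, 2.42 and 2.32 in wild type and 2.08, 1.41 and 1.80 in the knockout. Myl9 read 2.68, 4.32 and 4.39 in wild type and 3.67, 3.77 and 4.10 in the knockout. Myh11 read -3.06, -3.30 and -3.73 in wild type and -3.74, -4.50 and -3.91 in the knockout.

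Wild type replicate 1 split the list. It was above the other wild type arrays for Cnn1, Pln and Myh11, and these 3 genes had a gap on 6 arrays, of 1.08, 0.17 and 0.02. It was far below every knockout array for Acta2, Myl9, Cnn2 and Des. The differences without it were -0.61 ± 0.23 for Acta2, -0.51 ± 0.18 for Myl9, -0.37 ± 0.15 for Cnn2 and -1.39 ± 0.17 for Cnn1 (SE; limma, none passed after adjustment). With all 6 arrays the median difference of the list was 0.00. Tpm1 and Itga8, a tropomyosin and an integrin of smooth muscle, had higher means in the knockout but overlapped. Without wild type replicate 1 the dimmer Mylk probe overlapped, with a mean difference of 0.08. Tpm2, a tropomyosin on chromosome 4, was then lower by 0.35 without overlap, by a gap of 0.05. On all 6 arrays Tpm2 overlapped, with a mean difference of 0.27.

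Markers of neighbouring vessel cells were lower on knockout replicate 2 in particular. The 18 pericyte and fibroblast markers had a median difference of -0.24 without wild type replicate 1 (0.60 with it), with 15 below 0 and 2 without overlap, and a summed level of 119 to 146 on wild type replicates 2 and 3, 19.6 on wild type replicate 1 and 83.1 to 154 in the knockout. All 18 were well above background on all 6 arrays. The 20 endothelial markers had a median of -0.12 (0.74 with it), 17 being below 0, and a summed level of 309 to 311, 48.7 and 181 to 384 in the same order. The contractile list itself lay at -0.26, -0.73 and -0.13 on knockout replicates 1 to 3, and without knockout replicate 2 its median difference was -0.24, with 9 of 17 without overlap. In whole tissue, fewer cells of a type and less RNA per cell cannot be told apart, and the part of vessel cell number was not tested.

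**Figure D5:**
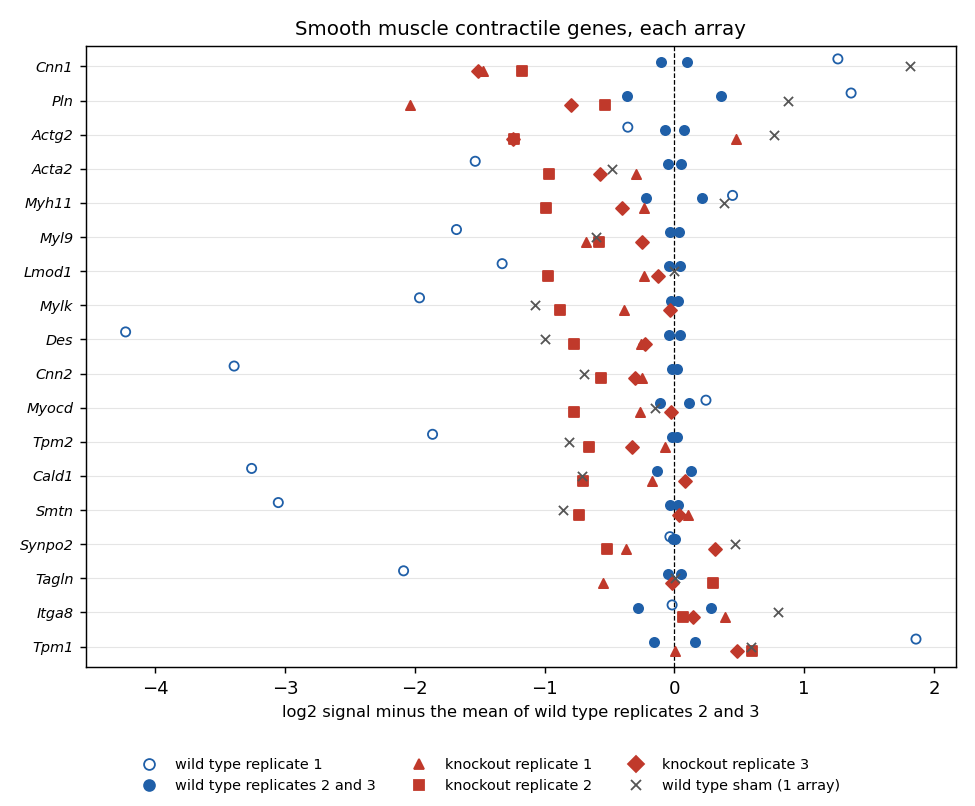
Signal of the 18 measured smooth muscle contractile genes (Tpm2 lies on chromosome 4) on each array, as log2 distance from the mean of wild type replicates 2 and 3. Red points lie mostly to the left of 0, and the open circle of wild type replicate 1 ranges from the far left (Des) to the right (Cnn1, Pln).

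Of these genes 14 had a promoter window. The CArG box, the site of serum response factor, stood in 2 of 14 (14.3%), against 1.62% of all genes with a window. Both are shown, cut to the box and its flanks, with the box in capitals.
Myl9, chr2:156775283-156775332, plus strand: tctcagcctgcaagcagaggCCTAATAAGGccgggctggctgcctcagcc
Cnn2, chr10:79988524-79988573, plus strand: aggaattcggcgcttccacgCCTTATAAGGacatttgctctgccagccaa
The letters GGAATG, bound by TEAD factors, stood in 6 of 14 genes (42.9%), Acta2, Cald1, Lmod1, Mylk, Smtn and Tpm1, against 14.4% of all. The AP-1 letters TGANTCA stood in 2 of 14, against 7.82%, and CCAAT in 9 of 14 (64.3%), beside the 37.5% of all genes given above. No CArG box as searched was in the windows of Cnn1 or Acta2.

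Matrix genes of the scar had a direction that depended on wild type replicate 1. On all 6 arrays 33 of 34 measured genes had a higher mean in the knockout, with a median difference of 0.74. Without that array 28 had a lower mean, and 9 were lower without overlap. The 1 higher gene was Col6a1, a chain of the microfibrillar collagen VI, and the median difference was -0.23. Col1a1, a chain of fibrillar collagen I, read -0.52, 2.81 and 3.01 in wild type and 2.51, 2.19 and 2.24 in the knockout. Col3a1, of collagen III, read -1.94, 3.32 and 3.41 in wild type and 3.10, 2.41 and 3.11 in the knockout. Serpinh1, the chaperone that folds collagen, read -0.73, 3.10 and 3.11 in wild type and 2.91, 2.40 and 2.85 in the knockout.

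Wild type replicate 1 was far below all other arrays for these 3 genes, so on 6 arrays 0 of 34 genes were lower without overlap. Loxl2, which crosslinks collagen, differed by -0.48 ± 0.20 without it and was lower on all 3 of its probes without overlap. Col1a1 differed by -0.59 ± 0.16 (SE; limma, neither passed after adjustment). With it the mean differences were 1.89 for Loxl2 and 0.55 for Col1a1. Fn1, fibronectin, read 1.96, 5.93 and 5.76 in wild type and 5.69, 5.42 and 5.64 in the knockout, a gap of 0.07 without wild type replicate 1. On the array labelled sham Col1a1 read 1.58 and Fn1 5.24. Knockout replicate 2 was the lowest knockout array for Col1a1, Col3a1, Serpinh1 and Fn1, and without it the list's median difference was -0.05, with 10 of 34 lower without overlap. Among 33 collagen genes, Col13a1, a membrane collagen, had the widest gap below wild type replicates 2 and 3, 0.78.

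Mitochondrial ribosome and proteasome genes differed by very small amounts. Without wild type replicate 1, 22 of 72 mitochondrial ribosome genes were higher without overlap (30.6%) and 6 lower (8.33%), with a median difference of 0.05. Mrpl9 had the largest gap, 0.32, and read 0.11, -0.28 and -0.16 in wild type and 0.15, 0.19 and 0.16 in the knockout. Its second probe also had no overlap, by 0.03. Mrps35 was higher by 0.21 and Mrps33 by 0.15. The median gap of the 22 genes was 0.04, and the spread between arrays of a group, an SD of 0.07 for the median member, was below the 0.16 of all bright features (above 1 on this scale). On 6 arrays 2 were higher and 2 lower.

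The proteasome gave 7 of 49 higher and 0 lower without wild type replicate 1, and 4 of 49 on 6 arrays. Psmd13, a lid subunit, read 1.75, 2.46 and 2.46 in wild type and 2.70, 2.55 and 2.71 in the knockout. Psmb1 and Psmb7, both core subunits, were higher by 0.16 and 0.17. The family set by name also holds genes that are not subunits, and these are part of both counts. Among the 7 they were Psmc3ip, Psme3ip1 and the proteasome inhibitor Psmf1, and among the 4 Psmc3ip and Psmf1. Of 90 cytosolic ribosomal protein genes set by name, 2 were higher and 2 lower without wild type replicate 1. These shares, 2.22% each, were below the 6.41% and 5.2% of all features. The 2 lower genes, Rps6kb1 and Rps6kc1, are kinase genes caught by the name and not ribosomal proteins.

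Receptors of the nose were the families with most members lower on all 6 arrays, and nearly all were dim. Of 186 olfactory receptor features 147 had a mean below -5, and in that range 14.3% were lower without overlap, against 5.11% of all features as dim. Above that range the share of all features was 1.69% to 2.45%, so a lower knockout signal was more frequent among dim features in general. Of 186 olfactory receptors 129 were well above background on all 6 arrays. The summed level of the family was 6.72 to 8.68 in wild type and 6.09 to 7.38 in the knockout, which overlap.

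Lists tied to the enzyme's own chemistry were short, so single genes weigh heavily in their shares. Of 30 eicosanoid enzymes and receptors, 2 were lower and 1 higher on 6 arrays, against 2.57% and 1.9% of all features. Leaving out wild type replicate 1, 3 of 30 were lower (10%, against 5.2% of all features) and 1 higher (3.33%, against 6.41%). Ptger1, a receptor of prostaglandin E2, read -3.92, -3.50 and -3.54 in wild type and -4.18, -4.00 and -3.98 in the knockout, with -4.04 on the array labelled sham. Ltb4r2, a leukotriene B4 receptor, and Ltc4s, leukotriene C4 synthase, had gaps of 0.00 and 0.01. Cysltr2, a cysteinyl leukotriene receptor, was lower by 0.64 without wild type replicate 1. Of 13 other phospholipases A2 outside chromosome 4, 2 (15.4%, against 6.41%), Pla2g6 and Pla2g1b, were higher without wild type replicate 1, with gaps of 0.10 and 0.06, Pla2g1b well above background on 3 arrays only.

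Direction in the injury and cell cycle lists depended on wild type replicate 1. On 6 arrays all 28 genes of damage-associated microglia and all 26 cell cycle genes had a higher mean in the knockout, with median differences of 1.07 and 1.35. Without that array 3 of 28 microglia genes were lower (10.7%, against 5.2% of all features), Trem2, a lipid-sensing receptor, Lgals3, galectin 3, and Gpnmb, a lysosomal glycoprotein. Their gaps were 0.09, 0.06 and 0.01. In the cell cycle list 4 of 26 were lower (15.4%), with the mitotic kinase Plk1 first at a gap of 0.12, and Pcna, the replication clamp, was higher by 0.07. Cd79a, a chain of the B cell receptor complex, was lower on 6 arrays by a gap of 0.06, and its second probe overlapped. Among genes of cilia 4 of 25 (16.0%) were lower without wild type replicate 1, Ttll6 and the dynein Dnah6 (-0.57 ± 0.19, limma, not passed) among them. Of 17 neuron markers 0 were without overlap in either direction, and the median difference was -0.26 without wild type replicate 1 and -1.04 with it.

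On chromosome 4, 24 features were higher (1.71%) and 45 lower (3.21%) without overlap on 6 arrays, of 1401. The shares outside it were 1.9% and 2.57%, and chromosomes 5 and 12 had 3.3% and 3.28% lower. Within 10 Mb of Pla2g2e 42 of 373 were lower without wild type replicate 1 (11.3%), against 46 of 991 on the rest of the chromosome (4.64%). Tcea3, an elongation factor for RNA polymerase II at 135810420 to 135810479 (mm9), read -4.50, -2.93 and -3.01 in wild type and -6.02, -5.86 and -6.02 in the knockout. Its knockout values had an SD of 0.09, and it had the smallest adjusted p without wild type replicate 1. Padi6, a peptidylarginine deiminase of the oocyte, was well above background on no knockout array and at least 3.30-fold lower. Pax7, a transcription factor of muscle stem cells, had a gap of 0.46, Zbtb17, the partner of Myc also called Miz-1, 0.40 and Aqp3, a water and glycerol channel, 0.49. Higher were Ifna2, an interferon, Tmem52 and Cyp2j6, an arachidonic acid epoxygenase, by gaps of 0.29, 0.23 and 0.20. The second Cyp2j6 probe overlapped, with a mean difference of -0.20.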

How the data were processed

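Agilent Feature Extraction 11.5.1.1 made the scanner files, and per the file headers the deposited processed intensity has a fitted background subtracted and a spatial trend divided out within each array. The deposited value table holds a linear ratio of that signal to each array's 75th percentile and served as an alternative only. Processed signals were taken to log2, the 75th percentile of spots other than controls was subtracted, outlier-flagged spots were dropped (14 of 39429 probes lost) and spots of 1 probe were averaged. A probe had to be well above background on 3 or more of the 6 arrays, and the brightest such probe stood for its gene, which gave 22804 features. Names came from accessions matched to RefSeq (28745 probes) and positions from the array design (mm9). A feature with no position took the chromosome of its RefSeq gene (645 features), and 153 had none. Tests used limma 3.58.1 under R 4.3.3 (two-sided; Benjamini-Hochberg over the 22804 features), and the procedure was tested on simulated data. The number of arrays limits the precision.

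An "at least" fold divides the mean of the bright group by a floor for the dim group: on each array the larger of the measured signal and the faintest signal called well above background, then averaged. The members, lists and tests were chosen with earlier results of these data known. Named by rule were Pla2g2e and genes with an ordinary symbol and the widest gaps that were well above background on every array of the higher group: outside chromosome 4 the 12 in each direction on 6 arrays, 8 more in each direction without wild type replicate 1 and up to 4 per list, and on chromosome 4 the 5 in each direction. Some genes given by this rule are left out of the text. Other list members were named after their values were seen. Scaling, background correction, the filter, the probe rule, the replicate block, array weights and single arrays were varied.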

Additional observations from a re-analysis of the deposited data

How the results depend on the processing

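All settings below are alternatives to the values in the report. Of 1324 differences of 93 genes followed singly under the alternatives, 1322 kept their direction and their side of the threshold; that of Aqp3 turned to 0.012 with normexp background correction, and Tcea3 passed with array weights (adjusted p = 0.0059). With normexp 20 of the 93 genes lost their gap, with quantile normalization 7. This tally does not cover putting wild type replicate 1 back: of the 48 followed genes whose groups overlap on 6 arrays, 24 then had a mean difference of the opposite sign. Quantile normalization turned the split on 6 arrays to 558 higher and 501 lower (52.7% higher, against 42.0%). Array weights, whose fit on 6 arrays did not fully converge, gave 2 called genes on 6 arrays and 2 without wild type replicate 1. Features with an unadjusted p under 0.05 on 6 arrays numbered 61 with normexp, 104 with the filter on all 6 arrays, 429 with no filter and 1210 with array weights; without wild type replicate 1 they numbered 186 with normexp, 585 with no filter and 833 with array weights.

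Leaving out 1 array at a time gave 157 to 360 features with an unadjusted p under 0.05 on 6 arrays and 313 to 1494 without wild type replicate 1, the highest without knockout replicate 2, and 0 after adjustment each time. Fewer arrays separate more easily: on 6 arrays the features without overlap went to 724 to 3640 higher and 1185 to 2922 lower, and without wild type replicate 1 to 2382 to 5412 higher and 2841 to 3772 lower, the highest of each without knockout replicate 2. Members without overlap, without wild type replicate 1, went to 8 to 13 for cholesterol synthesis, 9 to 12 for contractile genes, 10 to 17 for matrix genes and 25 to 36 for the mitochondrial ribosome. Replicate numbers are shared between the groups. Same-numbered arrays deviated from their group means with correlations of -0.38, -0.55 and 0.35. The wild type deviations are set largely by wild type replicate 1, so these values cannot decide whether the numbers mark pairs. With the replicate block 138 features had an unadjusted p under 0.05 on 6 arrays and 466 without wild type replicate 1, and 0 passed after adjustment.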
